A study of Arabidopsis thaliana with 24 samples.

Results

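The response to ozone of rosettes of C24, a natural accession of Arabidopsis thaliana, was measured by comparing 3 ozone libraries with 3 control libraries of the same accession. These 6 libraries, chosen by their titles alone, are part of 24 that cover C24 and the lines Te, CT101 and Col-0. Every group was whole rosettes of 3-week-old plants grown under 12 h of light and 12 h of dark. The C24 ozone plants received 350 nL per L of ozone for 2 h and the C24 controls did not. The ozone groups of Te, CT101 and Col-0 had the same concentration and time, each with controls of its own line, and the labels give no interval between exposure and harvest. Each library came from 100 ng of RNA of a pool of 10 to 15 rosettes, so it averages all cell types of the shoot. The study asked how transcripts respond to ozone in accessions that differ in ozone sensitivity. Counts were given for 32678 loci, of which 20554 had enough reads for a test.

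Ozone enters the leaf through the stomata and breaks down in the cell wall space into reactive oxygen species. The plant adds its own burst from NADPH oxidases of the plasma membrane (the RBOH family), and calcium, mitogen-activated protein (MAP) kinases, salicylic acid, ethylene and jasmonate then carry the signal. Many of the genes induced are shared with pathogen defence, in which such an extracellular burst also occurs.

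The 6 C24 libraries held between 13925869 and 21429574 counts each. Ozone replicate 2 was the shallowest and stood apart from the other ozone libraries. On the principal component of log2 CPM (counts scaled by library size and TMM factor) that held 82.4% of the variance, the controls lay between -74.3 and -69.7, ozone replicates 1 and 3 at 86.9 and 101, and ozone replicate 2 at 28.6. Over the 5527 genes that were higher in a fit without it, its median log2 difference from the controls was 0.61, against 1.14 in the other ozone libraries, and 97.5% of these genes had the same sign. Over the 4941 genes that were lower, it was -0.36 against -0.77, with the same sign in 95.7%. On the first component of all 24 libraries, replicate 2 was the lowest ozone library in every line. It lay at 41.4 in C24 (replicates 1 and 3 at 95.1 and 109) and at 86.4 in Te (97 and 115). In CT101 it lay at 96.5 (114 and 132) and in Col-0 at 62.8 (89.9 and 99.1). The values of C24 ozone replicate 2 are named throughout, and the main counts are given with and without it. Markers of the labelled tissue were abundant, and the 7 leaf genes summed to 48339.6 to 62918 CPM in controls and 31282 to 43065 CPM after ozone. Of 12 root markers only 5 had enough reads for a test, and their sum was 82 to 103 CPM in controls and 81.5 to 102 CPM after ozone. The 9 guard cell markers summed to 3187 to 4215 CPM in controls and 3119.6 to 4116 CPM after ozone. Of 9 floral markers 2 had enough reads for a test, and these summed to 0.84 to 0.992 CPM in controls and 0.32 to 1.33 CPM after ozone. Of 9 pollen and seed markers 0 had enough reads. The floral genes AP1 and AP3 and the seed genes CRU3, OLEO2, ABI3 and LEC1 were at 0 in all 6 libraries.

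After ozone, C24 rosettes held more RNA of defence regulators, danger signal precursors, camalexin synthesis and heat shock proteins, and less RNA of auxin-induced growth genes, aliphatic glucosinolate synthesis and chloroplast metabolism. The listed photosynthesis genes each fell by less than 2-fold, and the number called depended on single libraries. With the quasi-likelihood test of edgeR, p-values adjusted over all genes tested by the Benjamini-Hochberg method and a threshold of 0.05, 5259 genes were higher (25.6% of those tested) and 4566 were lower (22.2%). A change of at least 2-fold was called upward for 2755 genes (13.4%) and downward for 1001 genes (4.87%), so large changes were mostly increases. The 3 ozone libraries all lay above the 3 controls for 5873 genes (28.6%) and all lay below them for 5240 genes (25.5%). Without ozone replicate 2 the test called 5561 genes higher and 4948 lower, of which 3143 and 1654 by at least 2-fold. Without ozone replicate 3 it called 4338 higher and 2644 lower, of which 2409 and 565 by at least 2-fold. With library totals in place of TMM scaling, the direction of the split turned, with 4526 higher and 5625 lower, and the median of all genes moved from -0.03 to -0.14. In a pool of whole rosettes, fewer cells of a type and less RNA per cell cannot be told apart. The p-values and standard errors rest on the spread between replicate pools within the groups of all 24 libraries. They therefore draw on the pools of Te, CT101 and Col-0 as well as on those of C24.

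Among called genes whose C24 groups did not overlap and whose mean log2 CPM was 1 or more, the 10 with the largest increases were PROPEP3, AT2G23270, TDR1, AT1G56060, PROPEP2, NHL25, ZAT11, AT3G23550, AT3G02840 and WRKY40. PROPEP3, the precursor of a danger peptide that cells release on damage (AT5G64905, chr5:25939574-25940059), had 0.407, 0.396 and 0.157 CPM in controls 1 to 3 and 42.4, 21.1 and 79 CPM in ozone libraries 1 to 3. Its relative PROPEP2 (AT5G64890) had 0.233, 0.247 and 0.104 CPM in controls and 19.3, 9.11 and 26.4 CPM after ozone. Every ozone library lay above every control for both precursors, with ozone replicate 2 the lowest of the 3, at log2 fold changes of 7.19 ± 0.78 and 6.51 ± 0.61 (standard error, SE; adjusted p 5.3e-07 and 5.5e-07, edgeR). Both precursors lie on chromosome 5 in the same orientation.

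WRKY40, a transcription factor of the defence response (AT1G80840, chr1:30383691-30385499), had 6.58, 8.01 and 5.01 CPM in controls and 645, 229 and 706 CPM after ozone. AT3G23550, annotated as a transporter of the MATE family, had 1.28, 1.43 and 0.836 CPM in controls and 136, 48.6 and 107 CPM after ozone. AT1G56060, a small cysteine-rich membrane protein, had 1.45, 1.19 and 2.4 CPM in controls and 168, 60.9 and 248 CPM after ozone. The groups were well separated for all of these, and ozone replicate 2 again held the lowest ozone value. The log2 fold changes were 6.33 ± 0.46 for WRKY40 (adjusted p 1.1e-08), 6.35 ± 0.48 for AT3G23550 (adjusted p 1.6e-08) and 6.56 ± 0.67 for AT1G56060 (adjusted p 3.3e-07), all from edgeR. Of the others, the uncharacterized AT2G23270 changed by 6.91, TDR1 (AT3G23230, an ERF-type transcription factor) by 6.68, NHL25 (of the NDR1/HIN1-like defence family) by 6.47, the zinc finger factor ZAT11 by 6.46 and the ARM repeat protein AT3G02840 by 6.35. The loci of WRKY40 and AT3G02840 overlap a neighbour on the other strand, and the library kit does not mark strand, so reads of the overlap cannot be assigned. Ozone replicate 2 was the lowest ozone library for 2551 of the 2755 genes called higher by at least 2-fold (92.6%).

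Under the same limits on level and overlap, the 10 genes with the largest decreases were SAUR21, AT5G66590, AT1G23205, PRE1, AT4G28780, AT5G03120, AT1G29430, SAUR68, AT1G60590 and AT5G54585. SAUR genes encode small proteins that auxin induces and that promote cell expansion. SAUR21 (AT5G18030, chr5:5968435-5968938) had 11.3, 8.7 and 8.36 CPM in controls and 0.483, 2.46 and 0.534 CPM after ozone. AT4G28780, annotated as a GDSL-type lipase, had 64.1, 48.4 and 71.9 CPM in controls and 5.75, 16.4 and 8.28 CPM after ozone. AT1G60590, annotated as a pectin lyase-like protein, had 55.2, 49.9 and 39 CPM in controls and 7.87, 14.6 and 4.01 CPM after ozone. No ozone library reached a control for these 3 genes, and ozone replicate 2 was the highest ozone library for each. The log2 fold changes were -3.11 ± 0.52 for SAUR21 (adjusted p 8.9e-05), -2.62 ± 0.25 for AT4G28780 (adjusted p 1.4e-07) and -2.46 ± 0.39 for AT1G60590 (adjusted p 5.3e-05), all from edgeR.

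Further SAUR members among the 10 were AT1G29430, at -2.55, and SAUR68, at -2.49. Of 50-base stretches of these SAUR loci, 28.6% in AT1G29430, 26.5% in SAUR68 and 8.13% in SAUR21 occur elsewhere in the genome, so counts of these relatives may be divided between them. PRE1, a helix-loop-helix protein that promotes cell elongation, fell from 9.54, 5.73 and 4.39 CPM to 1.16, 1.13 and 0.854 CPM. AT1G23205, annotated as an inhibitor of invertase or pectin methylesterase, changed by -2.65, AT5G66590, of the CAP family, by -2.77 and the uncharacterized AT5G03120 by -2.60. The call for AT5G54585 (-2.45, adjusted p 0.016, edgeR) was lost without control replicate 2 (-1.96, adjusted p 0.077), without ozone replicate 1 (-2.04, adjusted p 0.083) and without ozone replicate 3 (-1.98, adjusted p 0.09). Ozone replicate 2 was the highest ozone library for 860 of the 1001 genes called lower by at least 2-fold (85.9%).

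**Figure D1:**
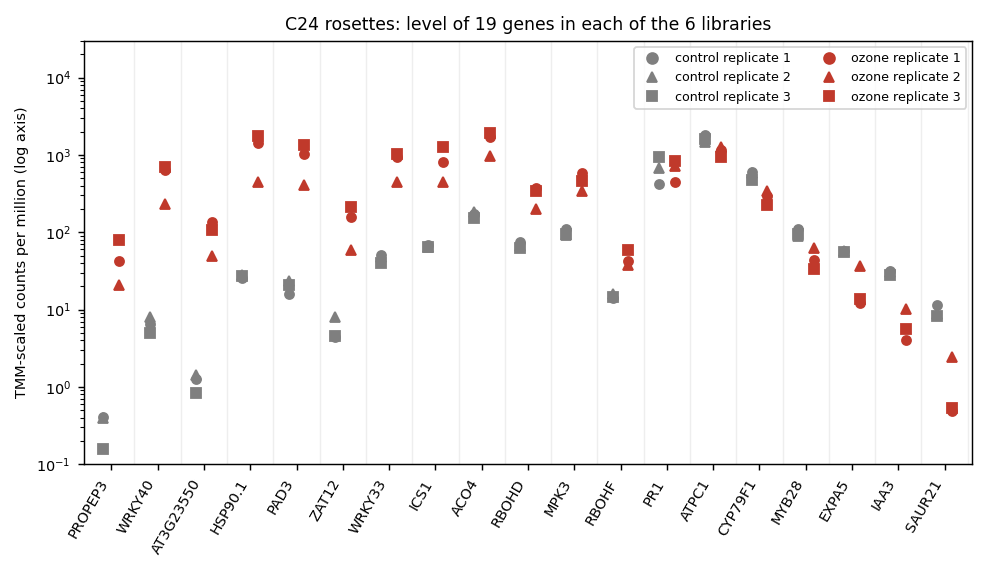
CPM after TMM scaling (log axis) of 19 genes in each C24 library, with controls in grey, ozone libraries in red and the replicate number as the shape. The ozone triangles (replicate 2) lie nearest to the controls for the genes that changed most, as with WRKY40 at 229 CPM against 645 and 706, and the groups of PR1 overlap.

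The promoters of 5 of these genes and relatives show what was searched for in the 250 bases before each locus start. W boxes, with the core TTGAC, are the binding sites of WRKY factors. The rapid stress response element was searched as CGCGTT, the GCC box of ERF factors as GCCGCC, the G box as CACGTG, the telo box as AAACCCTA each on both strands, and the heat shock element was searched likewise as 3 alternating inverted repeats of its unit with gaps between them. Bases are from the RefSeq assembly TAIR10.1, whose nuclear coordinates are those of the files, 5′ to 3′ on the strand of the gene. The windows are chr5:25939324-25939573 (+ strand) for PROPEP3, chr5:25934318-25934567 (+) for PROPEP2, chr1:20967145-20967394 (-) for AT1G56060, chr5:21352149-21352398 (+) for HSP90.1 and chr5:5968185-5968434 (+) for SAUR21. Capitals mark W box cores in PROPEP3 and PROPEP2, W box cores and the rapid stress response element in AT1G56060, and the heat shock element in HSP90.1.
PROPEP3: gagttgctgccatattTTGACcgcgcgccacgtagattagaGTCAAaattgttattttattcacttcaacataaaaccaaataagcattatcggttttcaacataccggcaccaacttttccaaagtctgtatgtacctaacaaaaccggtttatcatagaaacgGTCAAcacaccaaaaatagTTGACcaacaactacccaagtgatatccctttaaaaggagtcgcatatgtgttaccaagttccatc
PROPEP2: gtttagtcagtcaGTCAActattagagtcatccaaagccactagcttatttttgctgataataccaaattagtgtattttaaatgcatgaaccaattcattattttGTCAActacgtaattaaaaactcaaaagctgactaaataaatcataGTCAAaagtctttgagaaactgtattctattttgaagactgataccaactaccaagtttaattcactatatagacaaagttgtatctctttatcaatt
AT1G56060: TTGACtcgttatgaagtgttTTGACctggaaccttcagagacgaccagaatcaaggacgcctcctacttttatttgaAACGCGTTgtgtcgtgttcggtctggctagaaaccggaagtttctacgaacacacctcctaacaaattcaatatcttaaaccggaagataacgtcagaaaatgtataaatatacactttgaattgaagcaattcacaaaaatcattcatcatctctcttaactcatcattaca
HSP90.1: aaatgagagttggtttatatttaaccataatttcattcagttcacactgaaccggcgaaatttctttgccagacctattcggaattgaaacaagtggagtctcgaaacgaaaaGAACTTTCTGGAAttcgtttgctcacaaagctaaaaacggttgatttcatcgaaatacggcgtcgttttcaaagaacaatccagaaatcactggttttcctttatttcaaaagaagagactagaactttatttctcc
SAUR21: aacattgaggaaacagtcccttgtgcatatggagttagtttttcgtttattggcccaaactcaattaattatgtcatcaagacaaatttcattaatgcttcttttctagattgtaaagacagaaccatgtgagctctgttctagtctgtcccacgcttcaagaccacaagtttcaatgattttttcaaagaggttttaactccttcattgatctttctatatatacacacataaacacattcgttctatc
The PROPEP3 window holds 4 W box cores and the PROPEP2 window 3. AT1G56060 has 2 W box cores and, at a palindrome that begins 173 bases before its start, 2 overlapping matches of the rapid stress response element. HSP90.1, a heat-induced chaperone, has the heat shock element 137 bases before its start. No W box core was found in the window of SAUR21, nor in those of WRKY40, NHL25 and AT3G23550.

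Over all windows, the W box core was found in 62.8% of genes called higher by at least 2-fold, 36.3% of genes called lower by at least 2-fold and 44.9% of all 20549 windows. At least 2 cores were found in 27.5%, 7.89% and 14.1%. The rapid stress response element was found in 6.83%, 2.1% and 3.71%, in the same order. It can share letters with a W box core. The GCC box was found in 3.31%, 1.6% and 2.35%, and the heat shock element in 1.38%, 0.5% and 0.482%. The G box differed little, at 8.94%, 9.19% and 8.74%. The telo box, common upstream of ribosomal protein genes, was found in 2.65%, 2.2% and 5.87%, so it was scarcer in both changed groups than in all windows. With the calls made without ozone replicate 2, the W box core was found in 61.7% and 36.6%, and the telo box in 2.74% and 2.19%. The median GC content of the windows was 32.4%, 32% and 32.8%, and 17.1% of all windows reached into another locus. These shares are descriptions with no test.

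**Figure D2:**
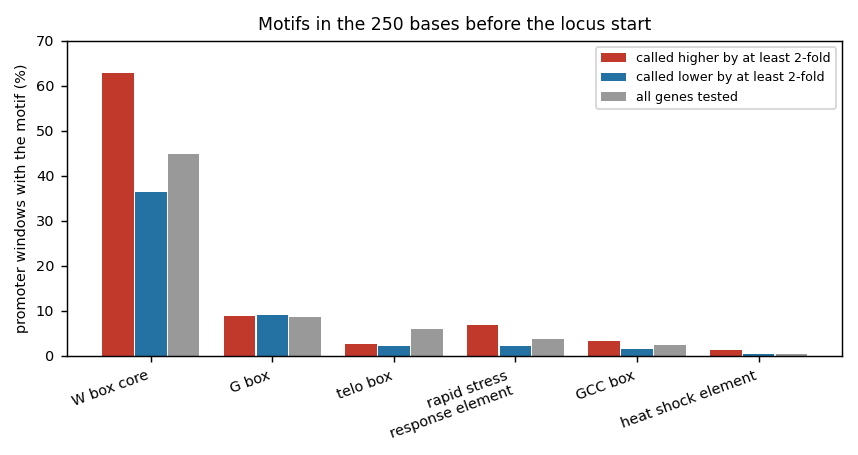
Share of promoter windows (250 bases before the locus start, in %) that hold each motif on either strand, for genes called higher or lower by at least 2-fold in C24 and for all genes tested. The W box core stands at 62.8% among higher genes and 36.3% among lower genes, around 44.9% for all, and the G box is near 9% in each group.

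Transcripts that report reactive oxygen species rose in C24. Of 19 tested regulators and markers of this kind, 16 rose, at a median log2 fold change of 2.97 against -0.03 over all genes, and 16 rose without ozone replicate 2 (median 3.24). ZAT12, a zinc finger repressor induced by many oxidants, had 4.36, 8.06 and 4.49 CPM in controls and 157, 58.2 and 211 CPM after ozone (4.65 ± 0.48, adjusted p 3.2e-07, edgeR). Its relatives ZAT10 and ZAT6 changed by 3.90 and 3.33. The mitochondrial carrier DIC1 rose by 3.38, and AOX1A, the alternative oxidase that bypasses part of the respiratory chain, by 2.27. Groups did not overlap for any of these 5 genes.

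The enzymes that make and remove reactive oxygen species did not move as a group. Among 25 tested producers and scavengers, 7 rose and 5 fell, with a median of 0.05, and without ozone replicate 2 the counts were 8 and 4. Over all genes tested 25.6% rose and 22.2% fell, so the counts of this list lie near those shares. The NADPH oxidase RBOHD had 74.3, 66.6 and 63.4 CPM in controls and 378, 200.1 and 338 CPM after ozone (2.17 ± 0.20, adjusted p 8.6e-08, edgeR). RBOHF, a second oxidase of the leaf plasma membrane, had 14, 15.8 and 14.6 CPM in controls and 42.1, 37.2 and 58.2 CPM after ozone (1.63 ± 0.18, adjusted p 5.6e-07). For RBOHF ozone replicate 2 lay close to replicate 1. RHD2 (RBOHC), best known from root hairs and one of the root markers counted above, rose from 0.407, 0.445 and 0.784 CPM to 14.9, 6.85 and 18.7 CPM. It was the only tested root marker that passed, and EXPA7, another root hair gene, was at 0 in all 6 libraries.

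Monodehydroascorbate reductases, which return oxidised ascorbate to its active form, rose, MDAR3 by 3.64 and MDAR2 by 1.98. Glutathione reductase GR of the chloroplast and mitochondrion fell by 0.53 on the log2 scale, dehydroascorbate reductase DHAR1 by 0.72 and the peroxisomal superoxide dismutase CSD3 by 0.58. The number of members that fell was 3 without ozone replicate 1 and 9 with library totals. In sulfate reduction and glutathione synthesis, 4 of 19 tested genes rose and 5 fell, with a median of -0.17. These counts too lie near the 25.6% and 22.2% of all genes tested. ATP sulfurylase ATPS1, which activates sulfate, rose by 0.66 and the serine acetyltransferase SERAT2;1 by 0.86. APR2, the main reductase of activated sulfate, had 549.7, 635 and 620.2 CPM in controls and 128, 385 and 126 CPM after ozone (-1.5 ± 0.35, adjusted p 0.0018, edgeR), so ozone replicate 2 lay between the groups. Sulfite reductase SIR fell by 0.46 on the log2 scale. Of this list, 2 members rose without ozone replicate 1 and 3 fell without ozone replicate 3. The loci of CSD3 and APR2 overlap a gene on the other strand.

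Cell surface perception and its kinase cascade rose broadly. Of 19 tested danger peptide precursors and receptors, 14 rose at a median of 1.67, with 14 and 1.84 without ozone replicate 2. The flagellin receptor FLS2 had 13.4, 13.6 and 18.8 CPM in controls and 109.7, 73.2 and 102 CPM after ozone (2.64 ± 0.31, adjusted p 1.5e-06, edgeR). Its coreceptor BAK1 rose by 2.31 and the cytoplasmic kinase BIK1, which activates RBOHD, by 3.28. The third precursor named here, PROPEP1, rose less than PROPEP2 and PROPEP3 on this scale, at 1.53.

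All 19 tested members of the MAP kinase cascade and its phosphatases rose, at a median of 1.73 (1.95 without ozone replicate 2). MPK3, the kinase that ozone and pathogens activate, had 111, 92.4 and 95.2 CPM in controls and 577, 338 and 465 CPM after ozone (2.21 ± 0.19, adjusted p 3.5e-08, edgeR). Its activator MKK4 rose by 2.2 and the kinase MEKK1, at the top of the cascade, by 1.73. MPK4, which acts in a separate branch, rose by 1.11. AP2C1, a phosphatase that switches stress MAP kinases off, rose by 2.37. MAPKKK19 rose most, from 0.931, 0.445 and 0.261 CPM to 48.6, 9.77 and 52.1 CPM.

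WRKY and NAC transcription factors rose nearly throughout, in 28 of 32 tested, at a median of 2.67, and in 29 without ozone replicate 2 (median 3.01). WRKY30 had 4.54, 4.6 and 4.6 CPM in controls and 273, 166 and 508 CPM after ozone. WRKY33, which activates camalexin genes, had 51, 47.2 and 39.7 CPM in controls and 936, 445 and 1026 CPM after ozone. The log2 fold changes were 6.11 ± 0.53 (adjusted p 5.3e-08) and 4.12 ± 0.30 (adjusted p 9.5e-09, edgeR), with no overlap. WRKY6 and WRKY53, both linked to senescence, rose by 4.42 and 4.16, and NAC102 by 3.68. WRKY70, which acts between salicylic acid and jasmonate signalling, rose by 1.61. The loci of WRKY33, WRKY53 and NAC102 overlap a gene on the other strand.

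Salicylic acid synthesis rose, while its classical output PR1 did not pass the test. Of 26 tested genes of salicylic acid and pipecolate, 20 rose (median 1.97), and 20 rose without ozone replicate 2 (median 2.22). ICS1, which makes the precursor isochorismate, had 68.2, 64.5 and 63.8 CPM in controls and 803, 447 and 1256 CPM after ozone. PBS3, which conjugates it, had 37.7, 35.5 and 28.7 CPM in controls and 421, 212 and 580.4 CPM after ozone. Controls were tight for both genes and the ozone libraries spread widely, in the order replicate 3, 1, 2. The log2 fold changes were 3.67 ± 0.35 (adjusted p 1.5e-07) and 3.57 ± 0.44 (adjusted p 2.3e-06, edgeR).

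The regulator CBP60G rose by 2.66, the lipase-like PAD4 by 1.84 and the salicylic acid receptor NPR3 by 2.13. PR1 had 426, 674 and 937 CPM in controls and 441, 725 and 833 CPM after ozone, so the groups lay on top of each other (-0.03 ± 1.19, adjusted p 0.99, edgeR). PR2, a glucanase, had 474, 418 and 551 CPM in controls and 1771, 1239 and 2039 CPM after ozone. Its groups did not overlap, but at 1.81 ± 0.74 the adjusted p was 0.051, and 0.0013 in a fit of the 6 C24 libraries alone. PR5 rose by 2.08 ± 0.52 (adjusted p 0.0028, edgeR). The 2 members called lower, the methyltransferase BSMT1 and PCC1, did not keep that call. It was lost for BSMT1 without control replicate 1 or any ozone library (adjusted p 0.073 to 0.62), and for PCC1 without any control or ozone replicate 1 or 3 (0.051 to 0.13).

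Ethylene genes rose, and jasmonate genes were divided. Of 27 tested ethylene genes, 22 rose and 1 fell at a median of 1.62, and 21 rose without ozone replicate 2 (median 1.82). ACO4, which makes ethylene from its precursor, had 171, 182 and 151 CPM in controls and 1723, 956 and 1926 CPM after ozone (3.19 ± 0.22, adjusted p 4.1e-09, edgeR). ACS2, of the family that makes the precursor, had 1.4, 1.19 and 1.1 CPM in controls and 20.4, 5.45 and 30.5 CPM after ozone. All ozone libraries lay above the controls, with replicate 2 far below the other ozone values for ACS2. The member that fell, ACS4 of the same family, was barely detected, at 0.698, 1.19 and 0.261 CPM in controls and 0, 0.0665 and 0.16 CPM after ozone. The receptors ERS1 and ERS2 rose by 1.69 and 2.40, and the response factors ERF1 and ERF2 by 5.55 and 3.97.

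Of 13 tested jasmonate synthesis genes, 7 rose and 4 fell, with a median of 0.75, beside 25.6% and 22.2% of all genes tested. Lipoxygenase LOX4 rose by 3.80, allene oxide cyclase AOC3 by 3.40, the reductase OPR3 by 2.41, and ACX1 and OPCL1, of later steps in the peroxisome, by 2.16 and 1.11. LOX3 rose by 1.13, while AOC4, from the same family as AOC3, fell by 0.55 on the log2 scale. Without ozone replicate 3 only 1 of the 13 fell, without control replicate 2 it was 2, and without ozone replicate 2 it was 6. Among 12 tested JAZ repressors, which hold jasmonate responses down and are themselves induced by the hormone, 6 rose and 1 fell (median 0.37). JAZ1 had 26.8, 36.6 and 14.8 CPM in controls and 487, 182 and 561 CPM after ozone (3.97 ± 0.43, adjusted p 5.1e-07, edgeR). JAZ5, JAZ8 and JAZ6 rose by 2.99, 2.85 and 1.93. The decrease called in this list, of JAZ3, was lost without control replicate 2 and without ozone replicate 1 or 3 (adjusted p 0.12 to 0.19), each leaving 0 members called lower, and without control replicate 3 the count was 2.

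Of 14 tested genes of jasmonate breakdown and output, 3 rose and 2 fell, beside 25.6% and 22.2% of all genes tested. The median was -0.16, and 4 fell without ozone replicate 2 or control replicate 3. IAR3 and CYP94C1, which break down the active hormone conjugate, rose by 2.94 and 2.00. VSP1, a storage protein induced by jasmonate, had 32.9, 49.1 and 5.33 CPM in controls and 2.51, 6.18 and 1.87 CPM after ozone, so control replicate 3 lay among the ozone libraries (-3.08 ± 0.86, adjusted p 0.0064, edgeR). Within each replicate number its ozone value was below its control. The count of members that fell was 1 without control replicate 2 and without ozone replicate 1 or 3. Abscisic acid genes showed no common direction, with 4 of 21 higher, 4 lower and a median of 0.07. Over all genes tested 25.6% were higher and 22.2% lower. AAO3, the last enzyme of its synthesis, rose by 1.49, and ABA1, an early one, fell by 1.02 on the log2 scale. The catabolic genes CYP707A3 and CYP707A4 changed in opposite directions, by 1.60 and -1.0, and the phosphatase ABI1 rose by 1.02. Of this list 2 members fell without ozone replicate 1 or 3, and without ozone replicate 2 the counts were 5 higher and 6 lower. The locus of AAO3 overlaps a gene on the other strand.

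The tryptophan-derived branch of defence metabolism rose while the methionine-derived branch fell. Of 18 tested genes of tryptophan and camalexin synthesis, 15 rose at a median of 2.15, with 15 and 2.44 without ozone replicate 2. The call of its 1 lower member, PAI1, was lost without control replicate 1 or 3 or ozone replicate 2 or 3 (adjusted p 0.051 to 0.1). PAD3, the last enzyme of camalexin synthesis, had 15.7, 23.5 and 20.9 CPM in controls and 1042, 409.7 and 1355 CPM after ozone (5.55 ± 0.72, adjusted p 4.9e-06, edgeR). CYP71A12, an earlier enzyme, had 5.7, 6.77 and 5.28 CPM in controls and 224, 119 and 505 CPM after ozone. For both genes each ozone library exceeded every control by more than 10-fold. In tryptophan synthesis, the anthranilate synthase subunits ASA1 and ASB1 rose by 2.19 and 2.65 and IGPS by 2.11. The loci of ASB1 and IGPS overlap a gene on the other strand, and 23.4% of the 50-base stretches of ASB1 occur elsewhere.

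Of 14 tested indole glucosinolate genes, 10 rose (median 1.90), and 10 rose without ozone replicate 2 (median 2.08). The transcription factors of this branch went opposite ways. MYB51 had 12.1, 7.76 and 10.5 CPM in controls and 214, 98.2 and 167 CPM after ozone (3.98 ± 0.30, adjusted p 1.4e-08, edgeR). MYB34 had 13.6, 9.74 and 9.92 CPM in controls and 3.24, 4.32 and 2.51 CPM after ozone (-1.73 ± 0.24, adjusted p 9.3e-06). CYP81F2 and the methyltransferases IGMT1 and IGMT2, which modify the indole ring, rose by 4.13, 3.88 and 4.39, and PEN2, the enzyme that hydrolyses the product, by 2.04. The IGMT genes share 11.2% and 39.9% of their 50-base stretches with other loci.

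In contrast 15 of 16 tested aliphatic glucosinolate genes fell, at a median of -0.92 and none by more than 1.59 on the log2 scale. The same count fell without ozone replicate 2, at a median of -1.06. Its regulators MYB28, MYB29 and MYB76 changed by -1.08, -1.11 and -1.59. MYB28 had 109.5, 89.7 and 95 CPM in controls and 43.7, 62.4 and 33.5 CPM after ozone (0.16 SE, adjusted p 2.5e-05, edgeR). CYP79F1, the enzyme that commits chain-elongated methionine to the pathway, had 608, 580.5 and 469.9 CPM in controls and 293, 340.2 and 227 CPM after ozone. No ozone library reached a control for either gene. CYP79F1, IPMI1 and UGT74C1 changed by -0.95, -0.93 and -0.98, and the whole list spanned -1.59 to -0.33. The locus of UGT74C1 overlaps a gene on the other strand.

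Phenylpropanoid genes were mixed and flavonoid genes tended lower. Of 17 tested genes leading to monolignols, 8 rose and 2 fell (median 0.34), beside 25.6% and 22.2% of all genes tested. CCR2, a cinnamoyl-CoA reductase linked to defence, rose by 3.92, PAL2, at the entry of the pathway, by 1.36, 4CL1 by 1.07 and HCT by 0.92. 4CL3, the isoform that feeds flavonoids, fell by 1.37 on the log2 scale. The number that rose was 5 without control replicate 3 or ozone replicate 3, and without either of these, control replicate 1 or ozone replicate 1 only 1 member fell. Of 15 tested flavonoid genes 5 fell and 0 rose, beside 22.2% and 25.6% of all genes tested, at a list median of -0.77. Chalcone synthase CHS had 143, 127 and 136 CPM in controls and 58.3, 68.3 and 51.8 CPM after ozone (-1.19 ± 0.21, adjusted p 1.5e-04, edgeR). FLS1 and the flavonol regulator MYB11 changed by -1.08 and -2.24. Without ozone replicate 1, 3 members of this list fell. The locus of CHS overlaps a gene on the other strand.

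Chaperones of the cytosol and of the endoplasmic reticulum (ER) rose. Of 22 tested heat shock genes, 15 rose and 2 fell (median 2.56), and 16 rose without ozone replicate 2 (median 2.85). HSP90.1 had 25.3, 27.6 and 27 CPM in controls and 1413, 443 and 1743 CPM after ozone (5.49 ± 0.53, adjusted p 1.6e-07, edgeR). The heat stress factor HSFA2 had 2.91, 3.31 and 3.08 CPM in controls and 60.7, 28.7 and 97.9 CPM after ozone (4.33 ± 0.45, adjusted p 3.9e-07). The controls were nearly equal for these genes, and ozone replicate 2 held the lowest ozone level. ROF2 and FES1A, cofactors of the chaperones, rose by 4.64 and 4.06, and HSFA4A, a factor linked to oxidative stress, by 2.65. HSP70-5 fell by 0.66 on the log2 scale. Only 1 member fell without control replicate 1, ozone replicate 1 or ozone replicate 3.

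In the ER list 19 of 20 tested genes rose, at a median of 1.33 (19 and 1.49 without ozone replicate 2). BZIP60, the transcription factor of the unfolded protein response, had 31.1, 29.4 and 28.7 CPM in controls and 223, 128 and 311 CPM after ozone (2.89 ± 0.28, adjusted p 1.1e-07, edgeR). BZIP28, its partner on the ER membrane, rose by 1.44 and the membrane-bound NAC062 by 2.33. ERO1, which drives disulfide formation, rose by 2.78 and the calreticulin CRT3, needed for immune receptors, by 1.68.

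Nuclear genes of photosynthesis were lower by small amounts. In the light reactions 22 of 36 tested genes fell, at a median of -0.48 and a range of -0.71 to -0.24, and in the Calvin cycle and photorespiration 17 of 24 fell (median -0.47). ATPC1, a subunit of the chloroplast ATP synthase, had 1820.2, 1479.6 and 1615 CPM in controls and 1163, 1269 and 927 CPM after ozone (-0.55 ± 0.13, adjusted p 0.0018, edgeR). ATPD and plastocyanin PETE1 changed by -0.69 and -0.65. Phosphoribulokinase PRK, the photorespiratory enzymes GOX1 and HPR1 and the glycine decarboxylase subunit GLDT changed by -0.76, -0.70, -0.84 and -0.58. The medians of the light reaction list were -0.30, -0.32 and -0.85 in ozone replicates 1, 2 and 3, so here replicate 3 was the library apart. The counts depended on single libraries. Without control replicate 1, 3 of the light reaction genes and 7 of the Calvin cycle genes fell, without ozone replicate 3 the counts were 3 and 7, and without ozone replicate 2 they were 22 and 18. With library totals all 36 light reaction genes fell.

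Chlorophyll metabolism followed, with 17 of 27 tested genes lower, 2 higher and a median of -0.52 (19 lower without ozone replicate 2). HEMA2, a second form of the enzyme that opens the pathway, had 19.4, 18.4 and 15.9 CPM in controls and 116, 53.5 and 129 CPM after ozone, and rose by 2.48 ± 0.35 (adjusted p 1.2e-05, edgeR). The magnesium chelatase subunits CHLI1 and CHLI2, the reductase DVR and protochlorophyllide reductase PORC changed by -0.53, -0.75, -0.52 and -0.78. The count of higher members was 1 without control replicate 2 or ozone replicate 1 or 3, and 4 without ozone replicate 2. The locus of CHLI2 overlaps a gene on the other strand.

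Auxin response genes had the lowest median of the 29 lists. Of 31 tested members 21 fell at a median of -1.11, and 21 fell without ozone replicate 2 (median -1.31). IAA3, a repressor that auxin induces and degrades, had 31.7, 30.8 and 28 CPM in controls and 4.01, 10.2 and 5.66 CPM after ozone (-2.2 ± 0.31, adjusted p 9.9e-06, edgeR). SAUR19, SAUR20 and SAUR24 changed by -3.49, -2.96 and -2.95, and share 23.5%, 5.83% and 14.3% of their 50-base stretches with other loci. GH3.5, an enzyme that conjugates auxin and salicylic acid, was the only member that rose, from 8.03, 8.45 and 7 CPM to 15.7, 12.1 and 14.4 CPM. Without ozone replicate 2, 3 members rose, and without control replicate 2 it was 2.

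Among 27 tested genes of cell wall expansion and growth hormone synthesis 13 fell (median -0.79), and 14 fell without ozone replicate 2. Expansin EXPA5, which loosens the wall, had 56.9, 57.5 and 56 CPM in controls and 12.3, 36.9 and 13.6 CPM after ozone (-1.45 ± 0.29, adjusted p 5.2e-04, edgeR). Ozone replicate 2 lay midway between the groups. EXPA6, the wall enzyme XTH9 and PRE6, a relative of PRE1, changed by -0.79, -1.19 and -2.08. Cell cycle genes hardly moved, at a median of -0.18. Of 20 tested members 0 were higher and 3 lower, beside 25.6% and 22.2% of all genes tested. CYCD3;1, a cyclin of the transition to DNA synthesis, fell by 0.59 on the log2 scale. The count of lower members was 1 without control replicate 3 or ozone replicate 1. Of 15 tested clock genes 2 rose and 4 fell (median -0.29), beside 25.6% and 22.2% of all genes tested. The evening genes TOC1 and LUX rose by 1.06 and 1.2. The groups of LUX overlapped, at 2.33, 2.52 and 4.44 CPM in controls and 8.45, 3.99 and 8.81 CPM after ozone, though within each replicate number the ozone value was above its control. The count of clock genes that fell was 0 without ozone replicate 1 or 3, 1 without control replicate 2 and 2 without control replicate 1.

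Of 15 tested senescence genes, 10 rose (median 1.5, and 1.60 without ozone replicate 2). SAG21, a small mitochondrial protein induced by oxidants, had 28.7, 37.6 and 31 CPM in controls and 1036, 478 and 1166 CPM after ozone (4.78 ± 0.68, adjusted p 1.3e-05, edgeR). WRKY45 and the autophagy gene ATG8H rose by 3.55 and 1.72. Of 17 tested genes of metacaspases and cell death control 11 rose (median 0.89, and 1.01 without ozone replicate 2). The metacaspases MC8 and MC1 rose by 3.40 and 1.82. BI1, an inhibitor of cell death, had 85.1, 91.9 and 73.6 CPM in controls and 273, 177 and 365 CPM after ozone, a change of 1.70 ± 0.24 (adjusted p 1.1e-05, edgeR). RIN4 and NHL3, membrane proteins of immunity, rose by 1.36 and 2.66. The loci of MC1 and NHL3 overlap a gene on the other strand.

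In arginine and polyamine metabolism, 3 of 16 tested genes rose and 6 fell (median -0.34), beside 25.6% and 22.2% of all genes tested. Arginine decarboxylase ADC1 had 152, 157 and 173 CPM in controls and 628, 341 and 656 CPM after ozone (1.75 ± 0.17, adjusted p 1.5e-07, edgeR). The acyltransferase AACT1, which acts on agmatine, rose from 0.116, 0.0494 and 0.104 CPM to 16.1, 3.26 and 13.7 CPM. Genes further along, spermidine synthase SPDS2, thermospermine synthase ACL5 and polyamine oxidase PAO5, changed by -0.75, -0.63 and -1.02. These genes therefore had the opposite sign to ADC1.

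**Figure D3:**
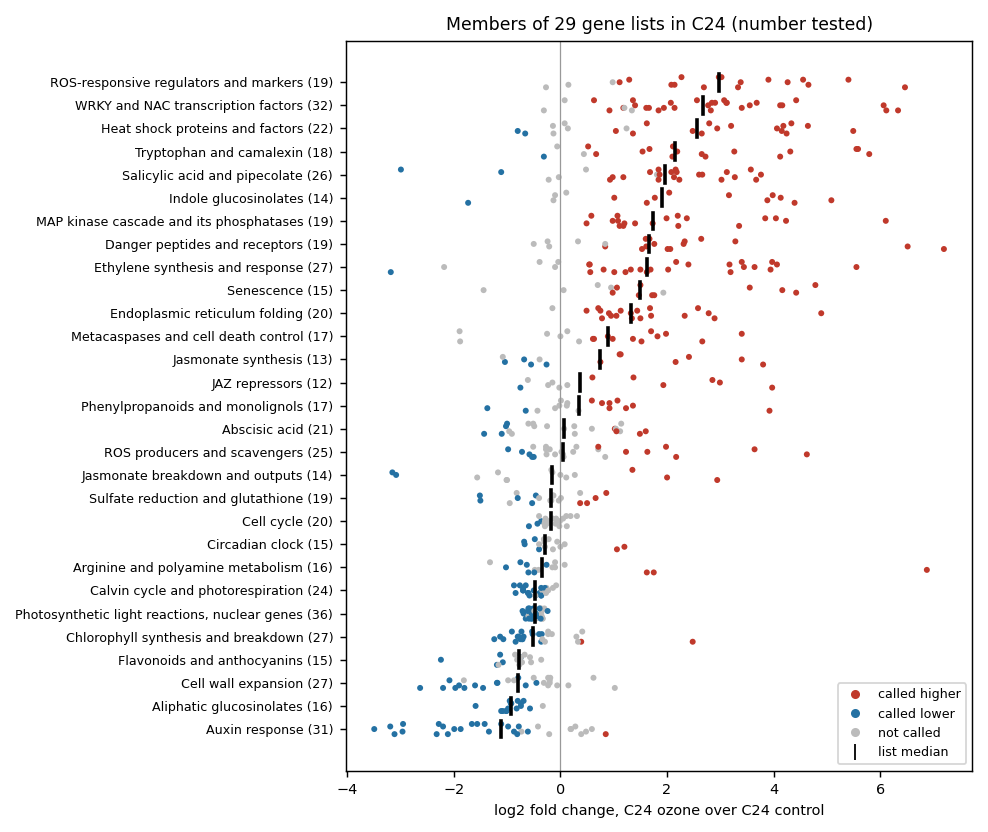
Log2 fold change of each tested member of 29 gene lists in C24 (ozone over control), ordered by the list median (black bar), with called members in red or blue and the others in grey. The medians run from 2.97 for regulators and markers of reactive oxygen species to -1.11 for auxin response, and the photosynthesis lists are narrow, within -0.87 to -0.08.

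**Figure D4:**
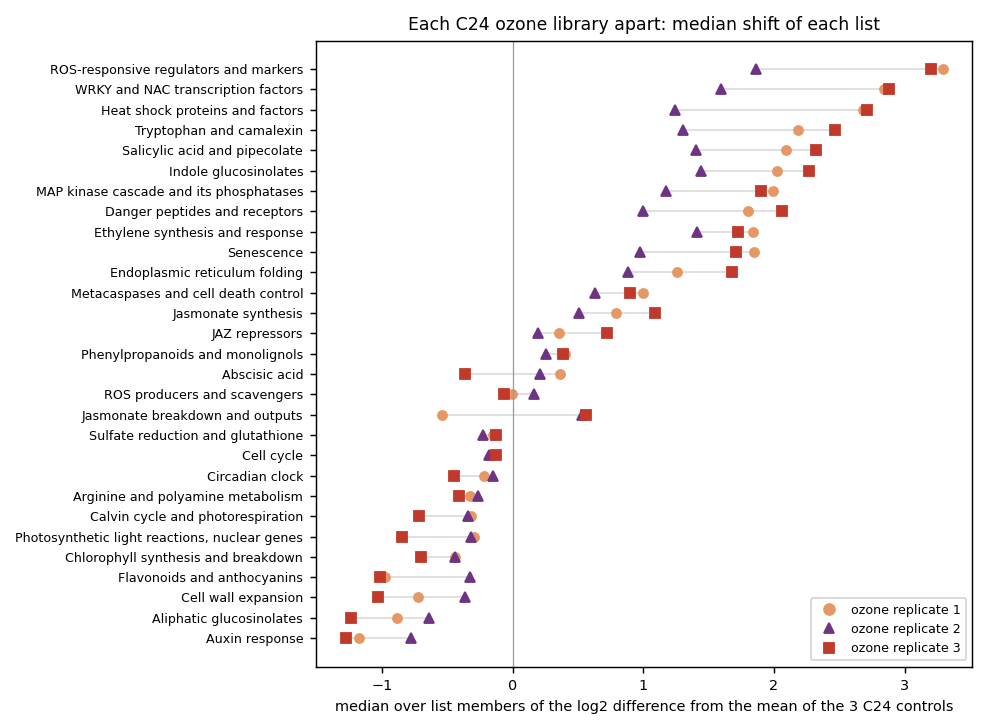
Median over list members of the log2 difference of each C24 ozone library from the mean of the 3 controls. Replicate 2 (triangles) is nearest to 0 in the lists that rose, at 1.86 against 3.29 and 3.2 for the list at the top, and replicate 3 (squares) is farthest below 0 for the light reactions, at -0.85.

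C24 was compared with the other lines by a test of the difference itself, the response of C24 minus the mean response of Te, CT101 and Col-0. In the edgeR fit 486 genes had a higher response in C24 (2.36%) and 1835 a lower one (8.93%). Without ozone replicate 2 of C24 the counts were 226 and 1162, and without control replicate 2 of C24 they were 176 and 1113. Ozone replicate 2 of the other lines was kept in these fits. The count of higher responses was 250 without C24 control replicate 3, 829 without C24 ozone replicate 3 and 923 without Col-0 ozone replicate 2. A lower response was thus called more often than a higher one with and without each of these libraries, and ozone replicate 2 of C24 moved with these counts.

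The most negative differences included DIN11 and AT1G59950, which stayed low in C24 after ozone and reached higher levels in the other lines. DIN11, an oxygenase of dark and sugar starvation responses, had 4.25, 0.939 and 0.522 CPM in C24 controls and 4.25, 1.66 and 12.8 CPM after ozone. After ozone its mean reached 259 CPM for Te, 219.6 CPM for CT101 and 289.9 CPM for Col-0, from below 0.5 CPM in their controls. The C24 groups overlapped, and the difference in response was -7.59 ± 0.97 (adjusted p 8.7e-05, edgeR). AT1G59950, an oxidoreductase, had 0.175, 0.198 and 0.104 CPM in C24 controls and 1.01, 0.798 and 1.76 CPM after ozone. In the other lines it reached means of 138, 94.5 and 38.7 CPM (difference -6.88 ± 1.24). Its Col-0 control mean was 0.0137 CPM, so the size of that difference depends on the prior count.

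NATA1, an acetyltransferase that jasmonate induces, had 20, 25.4 and 6.74 CPM in C24 controls and 6.33, 14.6 and 10.4 CPM after ozone. ILL5, of the amidohydrolase family that cleaves hormone conjugates, had 29.2, 36.2 and 1.72 CPM in C24 controls and 9.61, 16.2 and 10.3 CPM after ozone. In both genes the C24 groups overlapped and control replicate 3 was far below the other controls. Their log2 fold changes of -0.74 and -0.90 in C24 stood against 3.75 to 5.36 and 4.27 to 4.63 in the other lines, with differences of -5.51 ± 0.71 (adjusted p 9.0e-05) and -5.40 ± 0.76 (adjusted p 1.7e-04, edgeR). ELI3-2, a cinnamyl alcohol dehydrogenase relative, differed by -5.58. AT1G57650, annotated as an ATP-binding protein, and AT1G57630, with the TIR domain of immune receptors, lie near each other on chromosome 1 and differed by -6.35 and -5.27, and the DNA-binding protein AT5G01380 by -4.91. The call for AT1G57630 was lost without C24 control replicate 2 (adjusted p 0.074) and that for AT5G01380 without C24 control replicate 1 (adjusted p 0.11).

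Lower responses in C24 were called in many of the lists, and these shares stand beside the 8.93% of all genes. Counts in brackets are from the fit without C24 ozone replicate 2. That fit called fewer genes lower over all genes, so the 8.93% does not apply to them. They included 7 of 13 jasmonate synthesis genes (5 without C24 ozone replicate 2), 9 of 19 sulfate and glutathione genes (6), 8 of 18 tryptophan and camalexin genes (6), 13 of 32 WRKY and NAC genes (10), and 5 of 12 JAZ repressors (1). The counts were 7 of 19 MAP kinase genes (1), 7 of 19 danger peptide and receptor genes (5) and 7 of 26 salicylic acid and pipecolate genes (3). For JAZ repressors and MAP kinase genes, the calls thus depended on ozone replicate 2 of C24. Of 14 jasmonate breakdown and output genes 9 had a lower response in C24, and 5 without its ozone replicate 2. ILL6 and the defensin PDF1.2, which jasmonate and ethylene induce, had log2 fold changes of -0.00 and 0.11 in C24, with differences of -3.47 ± 0.51 and -3.84 ± 0.81. Of 17 phenylpropanoid genes 9 had a lower response with and without that library, among them CCR2 at -3.16 ± 0.67. Of 19 tested regulators and markers of reactive oxygen species 10 had a lower response, and 8 without it. Of 25 producers and scavengers 4 had a lower response with and without that library. RHD2 and MDAR3 of that list and the glutathione synthase gene GSH2 differed by -4.13 ± 0.71, -2.83 ± 0.55 and -2.02 ± 0.20. The C24 controls themselves differed in the jasmonate lists, with control replicate 2 the highest in each. Members summed to 3148, 4633 and 2632 CPM in controls 1 to 3 for synthesis. The sums were 357, 531 and 273 CPM for JAZ repressors, and 514, 849 and 235 CPM for breakdown and output. Counts by list without control replicate 2 are not given here.

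Fewer genes had a higher response in C24. AT3G47380, annotated as an inhibitor of invertase or pectin methylesterase, had 1.22, 1.78 and 2.87 CPM in C24 controls and 13.2, 10.6 and 19.5 CPM after ozone. Its log2 fold change of 2.87 stood against 0.27 for Te, 0.65 for CT101 and 0.19 for Col-0 (difference 2.50 ± 0.30, adjusted p 4.3e-05, edgeR). AT3G45390, a lectin receptor kinase, had 7.8, 5.98 and 6.16 CPM in C24 controls and 14.5, 11.4 and 14.6 CPM after ozone. It had 1.03 in C24 and -1.49, -1.2 and -1.61 in the other lines (difference 2.46 ± 0.30, adjusted p 4.8e-05). The ubiquitin ligase PUB29 likewise had 1.60 in C24 and -0.54, -0.80 and -0.11 elsewhere (difference 2.09 ± 0.32). The C24 groups did not overlap for these 3 genes, and the fitted sign was opposite to that of every other line for the last pair.

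RLP42, a receptor-like protein, had 2.30 in C24 and 0.61, 0.07 and 0.15 elsewhere (difference 2.02 ± 0.28), though 37% of its 50-base stretches occur at other loci. RBOHF was the only producer or scavenger of reactive oxygen species with a higher response in C24, at 1.63 against 0.21, 0.62 and 0.56 (difference 1.16 ± 0.21, adjusted p 0.0011, edgeR, and 6.4e-04 without ozone replicate 2). The other higher differences came from weaker decreases. AT2G44230 had -0.84 in C24 and -3.16, -3.13 and -3.12 elsewhere (difference 2.29 ± 0.41), and the phosphatase AT5G02760, which overlaps a gene on the other strand, had -0.60 against -2.85, -1.82 and -2.88 (difference 1.92 ± 0.35). The differences of the expansin EXPA8 (2.13 ± 0.63, adjusted p 0.034) and of GASA6, a gene induced by gibberellin (1.96 ± 0.56, adjusted p 0.029), were lost without C24 ozone replicate 2, at adjusted p 0.12 and 0.097. In the auxin list 8 of 31 genes had a higher, that is less negative, response in C24, beside 2.36% of all genes tested. Without ozone replicate 2 it was 3.

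**Figure D5:**
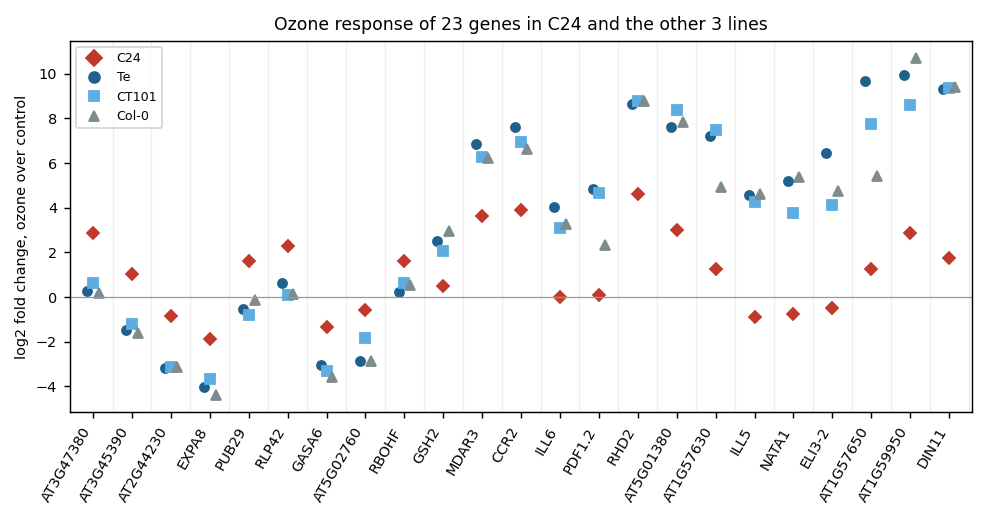
Log2 fold change (ozone over control) of 23 genes in C24 (diamonds) and in the lines Te, CT101 and Col-0, ordered by the difference of C24 from the mean of the others. On the left C24 lies above the other lines, as for AT3G47380 at 2.87, and on the right far below them, as for DIN11 at 1.76 against 9.30 to 9.40.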

How the data were processed

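RNA of rosette pools was sequenced in 24 libraries, 3 in each of 8 groups, made with a kit that does not mark strand, per the labels' protocols. The authors deposited raw counts of reads per locus for each library, and the submitters' processing notes name FastQC, Bowtie2, SAMtools, HTSeq and the TAIR10 build, with no versions or roles. Whether reads were split across introns is not given in the sources used here. Organelle loci were at 0 in every library, so chloroplast genes are not analysed here. The C24 libraries held 13925869 to 21429574 counts, and 7383 loci were at 0 in all 6.

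The deposited counts were tested with edgeR 4.0.16 (R 4.3.3): filterByExpr at a minimum count of 10, TMM scaling, a robust quasi-likelihood fit of all 24 libraries in 8 groups without a block, and Benjamini-Hochberg adjustment over 20554 genes at 0.05. SE is the log2 fold change divided by the square root of F. CPM values are TMM-scaled. Alternatives were RLE factors, library totals, no filter, C24 alone, the replicate block, DESeq2 1.42.0 and leaving out each library. Replicate numbers are shared by the groups in the labels. Deviations of same-numbered C24 libraries correlated at 0.284, 0.103 and 0.146, all above 0.1 though barely for replicate 2. The numbers were therefore taken to pair them in the replicate block, and the p-values of the main fit do not use this pairing. On simulated counts the C24 test recovered 28, 55.1, 89.6 and 98% of genes changed 1.5-, 2-, 4- and 8-fold. The simulation changed far fewer genes than were called in C24 and held no weaker ozone library. These shares therefore need not hold for the data.

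The 29 gene lists (623 symbols, 6 without a locus) and the rules below were chosen with earlier results of these data known. Genes named were the 10 with the largest change in each direction, up to 5 members per list with the smallest adjusted p and up to 3 against its majority, and the 8 with the largest difference from the other lines in each direction. Some of these are left out, and further list members, such as PAD3, ILL6, PDF1.2 and GSH2, were chosen after their values were seen. Of the loci 31912 of 32678 matched the reference by identifier.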

Additional observations from a re-analysis of the deposited data

Results flagged for a closer look

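The results below stand out because the response of C24 differed from the mean response of Te, CT101 and Col-0 in a test of the difference itself (edgeR, adjusted over all genes tested). Values are C24 minus the others on the log2 scale. Higher in C24 were AT3G47380 at 2.50, AT3G45390 at 2.46, AT2G44230 at 2.29, EXPA8 at 2.13, PUB29 at 2.09, RLP42 at 2.02, GASA6 at 1.96, AT5G02760 at 1.92 and RBOHF at 1.16. Of these, AT3G45390 and PUB29 had a fitted sign opposite to that of every other line, by a small margin for PUB29 in Col-0. AT2G44230, EXPA8 and GASA6 were negative in every line.

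Lower in C24 were DIN11 at -7.59, AT1G59950 at -6.88, AT1G57650 at -6.35, ELI3-2 at -5.58, NATA1 at -5.51, ILL5 at -5.40, AT1G57630 at -5.27 and AT5G01380 at -4.91. Among list members, RHD2 was at -4.13, PDF1.2 at -3.84, ILL6 at -3.47, CCR2 at -3.16, MDAR3 at -2.83 and GSH2 at -2.02. The C24 ozone group includes replicate 2, which lay nearer to the controls than the other ozone libraries did. With it left out, and ozone replicate 2 of the other lines kept, the adjusted p of these lower differences stayed under 0.05. Those of EXPA8 and GASA6 became 0.12 and 0.097.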

How the results depend on the processing

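Of 1965 values of the ozone effect of 164 named genes under the alternatives, 1937 kept their direction and their side of the threshold. Calls were lost in 23 values, all of AT5G54585, BSMT1, PCC1, PAI1 and JAZ3, and PR2 passed with RLE factors, in C24 alone and with DESeq2 (1.81 each). PR1, at -0.03, had the opposite sign without control replicate 3 (0.27) and without ozone replicate 1 (0.21), with a range of -0.26 to 0.27 over fits without a C24 library, and passed no test. Of 667 values of the 23 response differences, counted apart, 17 lost the call, all of EXPA8, GASA6, AT1G57630 and AT5G01380. With the replicate block, the pairing gave 5224 genes higher and 4716 lower, and 506 higher and 1841 lower differences, and among the named genes it ended no call.

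Leaving out each C24 library gave 2644 to 4948 genes lower. Leaving out each of the 24 libraries gave 176 to 923 higher and 1113 to 2130 lower differences, and DESeq2 gave 757 higher. List medians moved beyond the spread of the ozone libraries in 22 of 348 cases. The medians of 3 lists near 0, producers and scavengers of reactive oxygen species, jasmonate outputs and abscisic acid, had the opposite sign under some alternatives. With library totals the moved medians were sulfate reduction and glutathione at -0.28, phenylpropanoids at 0.23, cell cycle at -0.29 and arginine and polyamines at -0.44. In C24 alone they were ethylene at 1.86, JAZ repressors at 0.99 and arginine and polyamines at -0.41. Over fits without a C24 library, the medians spanned -0.24 to 0.61 for abscisic acid, -0.47 to -0.17 for arginine and polyamines, -0.21 to -0.09 for cell cycle, 0.24 to 0.68 for JAZ repressors, 0.50 to 1.04 for jasmonate synthesis, 0.25 to 0.41 for phenylpropanoids and -0.25 to -0.14 for sulfate reduction. The cause was not tested.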
